A study of Mus musculus with 20 samples.

Results

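Iapp, Pdx1, Cndp1, Gatm and Ctse are 5 genes whose levels in the visceral yolk sac varied between control mouse conceptuses, conceptuses exposed to a phthalate metabolite, and exposed conceptuses with a neural tube defect (NTD). They were taken by their symbol in the deposited expression table, which gave 9 of 38367 named probe sets and 5 of 20794 genes. They were chosen from their yolk sac levels on these arrays, by which comparison is not recorded, so every yolk sac difference of these genes is given below as a description with no test. Embryo values were tested. A gene with several probe sets is represented by the one with the highest mean over the 20 arrays, its main probe set, and the others are given beside it.

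The 20 Affymetrix arrays measured RNA of CD-1 conceptuses taken from untreated dams on gestational day 8 and kept 24 h in whole embryo culture, a method in which the embryo goes on developing inside its membranes outside the mother. Medium held either 0.01% dimethyl sulfoxide (DMSO), the control, or 100 µg/ml mono-2-ethylhexyl phthalate (MEHP), the monoester formed from the plasticizer diethylhexyl phthalate. Conceptuses were dissected on gestational day 9 into embryo and visceral yolk sac and sorted by whether an NTD was present. Either tissue was represented by 10 arrays in 4 groups: controls free of a defect (3), a single control with NTD (1), MEHP free of a defect (3) and MEHP with NTD (3), so 8 groups in all. This grouping follows the authors' comparison tables and is contested: sample headings in a second deposited copy of the same values put 13 of the 20 arrays in another group, and 8 of these in the other tissue. Under the grouping used here, the neural factor Sox2 was higher on every embryo array than on every yolk sac array. Median levels of visceral endoderm markers were higher on every yolk sac array than on every embryo array. In tissue, these levels follow the grouping used here, also for those 8 arrays. They do not settle the exposure or NTD group of an array. No group carries an allele or a transgene, and culture is shared by every group. The labels of the MEHP groups name no DMSO. The sources used here do not state how many conceptuses or litters an array stands for. P-values therefore measure the spread between these samples, which may be technical.

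The visceral yolk sac feeds the embryo before the placenta does. Its endoderm takes up and digests protein from outside, secretes plasma proteins and carries the transcription factors of gut and liver, while its mesoderm forms the first blood and vessels. Pdx1 is the homeodomain factor needed to form the pancreas, and in beta cells it activates insulin and Iapp, which encodes the peptide hormone amylin. Amylin acts on the calcitonin receptor (Calcr) when that receptor is joined to a receptor activity modifying protein (Ramp1, Ramp2 or Ramp3). Gatm transfers the amidino group of arginine to glycine, the first step of creatine synthesis, and Gamt carries out the second. Cndp1 is carnosinase, which splits the dipeptide carnosine into beta-alanine and histidine. Ctse is cathepsin E, an endosomal aspartic protease known from stomach epithelium, immune cells and red cells.

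The bases before the starts of Iapp and Pdx1 are shown because both genes had their high values on the same yolk sac arrays and because the Pdx1 protein belongs to the homeodomain family, whose core motif is TAAT. Each is the 250 bases before the annotated start, 5′ to 3′ on the plus strand, from RefSeq (GRCm38.p6). The promoter table matched 3 of the 5 genes, Iapp, Pdx1 and Gatm. Capitals mark TAAT, or ATTA, its reading on the other strand.
Iapp, chr6:142298175-142298424: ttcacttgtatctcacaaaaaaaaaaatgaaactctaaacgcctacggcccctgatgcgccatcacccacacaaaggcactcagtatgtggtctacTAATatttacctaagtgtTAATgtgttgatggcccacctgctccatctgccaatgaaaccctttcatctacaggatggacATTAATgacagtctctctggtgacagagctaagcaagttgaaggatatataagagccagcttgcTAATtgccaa
Pdx1, chr5:147269847-147270096: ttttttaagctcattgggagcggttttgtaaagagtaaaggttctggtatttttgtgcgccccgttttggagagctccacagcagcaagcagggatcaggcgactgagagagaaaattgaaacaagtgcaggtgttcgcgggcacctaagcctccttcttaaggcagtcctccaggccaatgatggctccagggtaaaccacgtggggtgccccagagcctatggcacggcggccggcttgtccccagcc
Iapp held TAAT at 5 places, 4 on the plus strand and 1 on the other. They begin 154, 136, 74, 72 and 10 bases before the start, and those at 74 and 72 overlap. Of 32851 windows of the same length in the table, 54.9% held TAAT on either strand, so its presence is common. No TAAT was found in the Pdx1 window. The hexamer AGGTCA bound by nuclear receptors, the family to which the phthalate-responsive PPAR proteins belong, was absent from both windows and occurred once in the Gatm window, on the other strand, 156 bases before the start, against 14% of windows in all. A direct repeat of that hexamer with 1 base between was in none of the 3 windows and in 0.0335% of all. These letter matches describe the windows only.

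Arrays were comparable in overall level, with medians over all probe sets between 4.81 and 4.90 on the log2 scale. All yolk sac arrays carried the defining markers of visceral endoderm. The median of 29 such markers lay between 11.47 and 11.75 on yolk sac arrays, the secreted proteins Afp and Ttr stood at group means of 13.24 to 13.30 and 13.38 to 13.49, and the neural factor Sox2 stood at 3.03 to 3.31. Embryo arrays were lower in visceral endoderm markers but unequal, with medians of 4.85 to 5.53 on 8 arrays, 6.16 on control array 2 and 6.50 on MEHP array 3 without NTD. Embryo calls were therefore also computed without those 2 arrays. Probe sets without a mouse target measure nonspecific signal. The mean of 9 such probe sets (16 to 24 G or C bases) was lower with MEHP in both tissues, at 3.87 to 4.08 on yolk sac controls without NTD and 3.70 to 3.83 on the 6 yolk sac MEHP arrays, and at 3.92 to 4.05 and 3.65 to 3.801 in embryo. The corresponding differences of means were -0.21 in yolk sac and -0.23 in embryo for MEHP without NTD minus control. Controls come first and exposed samples later in the array numbering, so the order of arrays cannot be told apart from exposure. Among exposed arrays those without NTD come before those with NTD, so order cannot be told apart from NTD status either. Median gene level over the 20 arrays was 5.72, and Iapp (4.60), Pdx1 (4.24) and Cndp1 (4.85) are dim genes whose main probe sets average below it.

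**Figure D1:**
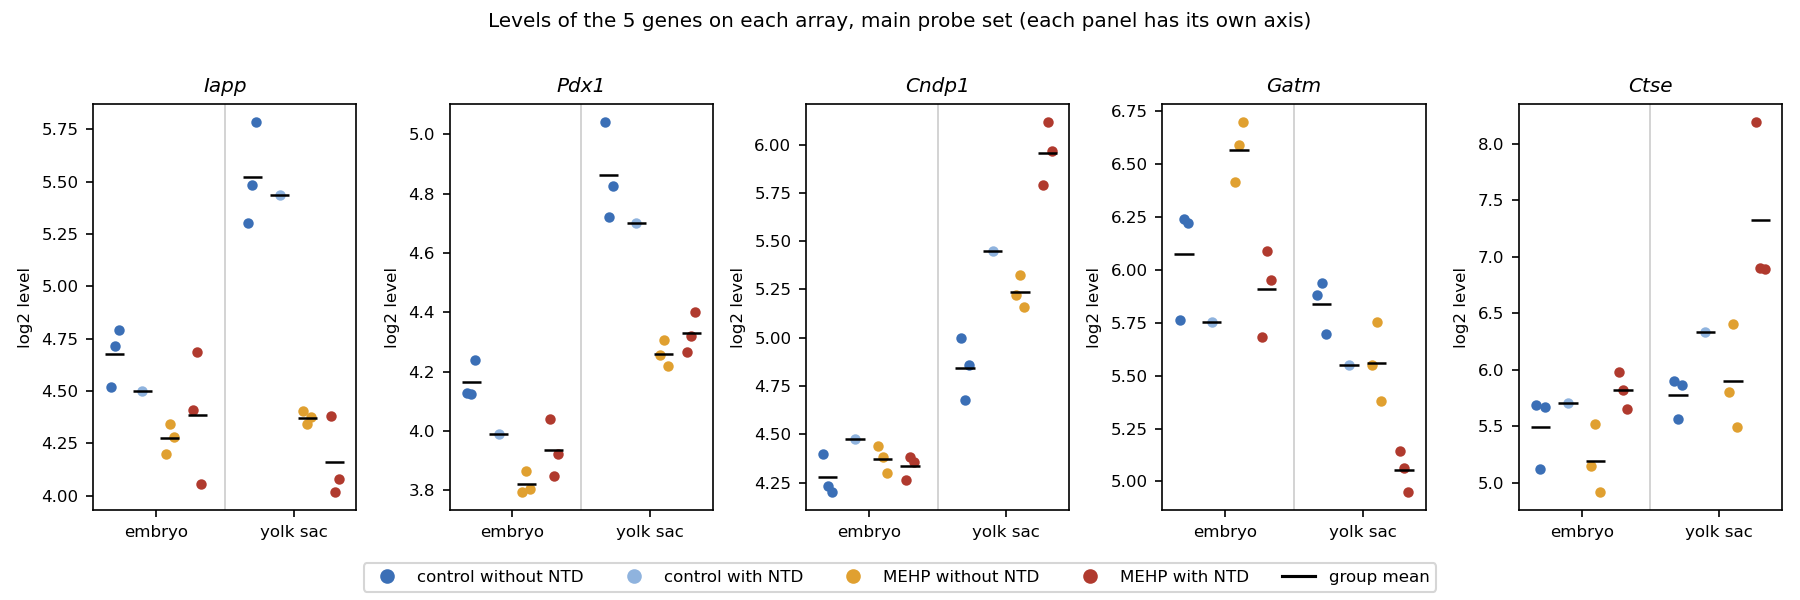
Log2 level of each gene's main probe set (vertical axes, a separate scale in each panel) on every embryo and yolk sac array, coloured by group, with black bars for group means. In the yolk sac Iapp and Pdx1 were lower on all 6 MEHP arrays than on all 4 controls, while Cndp1 and Ctse were highest and Gatm lowest on the 3 MEHP arrays with NTD.

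Iapp, the amylin gene, separated yolk sacs by exposure. The main probe set (1423509_PM_a_at) stood at 5.30, 5.48 and 5.78 on the controls without NTD, at 5.44 on the control with NTD, at 4.40, 4.34 and 4.38 with MEHP without NTD, and at 4.38, 4.02 and 4.08 with MEHP and NTD. Every control array was above every MEHP array, the control with NTD lay among the other controls, and the MEHP groups with and without NTD overlapped. Group means were 5.52 ± 0.24 (SD, n = 3) in controls without NTD and 4.37 ± 0.03 (SD, n = 3) with MEHP without NTD, a difference of -1.15 ± 0.12 (limma SE), or 2.22-fold lower on the array scale. Its size ranked 16 among the 20794 genes. Under the contested sample headings, which put 8 arrays in the other tissue, the groups of the same name differed by 0.041. Those groups can mix embryo and yolk sac arrays, so 0.041 need not be a difference between yolk sacs alone. The MEHP levels of 4.02 to 4.40 lie near the brighter nonspecific probe sets, those holding 22, 23 or 24 G or C bases, whose means over the 20 arrays were 4.05, 4.36 and 4.62, so the fold describes array signal and is not a ratio of transcripts. MEHP with NTD minus control was -1.36 ± 0.12, 2.57-fold lower, and MEHP with NTD minus MEHP without NTD was -0.21 ± 0.12. The first pair of these differences shares the control arrays. In whole tissue RNA, fewer cells of a type and less RNA per cell cannot be told apart.

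Pdx1 showed a smaller difference on the same arrays. Yolk sac levels of its main probe set (1422174_PM_at) were 5.04, 4.72 and 4.82 in controls without NTD, 4.70 in the control with NTD, 4.26, 4.31 and 4.22 with MEHP without NTD, and 4.27, 4.32 and 4.40 with MEHP and NTD. All 4 controls exceeded all 6 MEHP arrays, and both MEHP groups overlapped. Means of 4.86 ± 0.16 and 4.26 ± 0.04 (SD, n = 3 each) gave a difference of -0.60 ± 0.08 for MEHP without NTD minus control, 1.52-fold lower, which ranked 153 in size. With NTD the difference from control was -0.53 ± 0.08, and between the MEHP groups it was 0.07 ± 0.08.

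Both differences rest on 1 probe set each. The other Iapp probe sets were dim in the yolk sac, and went from control means of 3.56 (1423510_PM_at), 3.17 (1437323_PM_a_at) and 3.43 (1456004_PM_x_at) to means of 3.43, 3.04 and 3.50 with MEHP without NTD. The second Pdx1 probe set (1422173_PM_at) went from 3.95 ± 0.15 to 3.90 ± 0.08 (SD, n = 3 each), and its groups overlapped. The nonspecific probe sets differed by -0.21 in the same comparison, less than the main probe sets of Iapp and Pdx1 (-1.15 and -0.60) and more than the second Pdx1 probe set. Which part of the 2 differences follows the nonspecific signal was not tested.

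**Figure D2:**
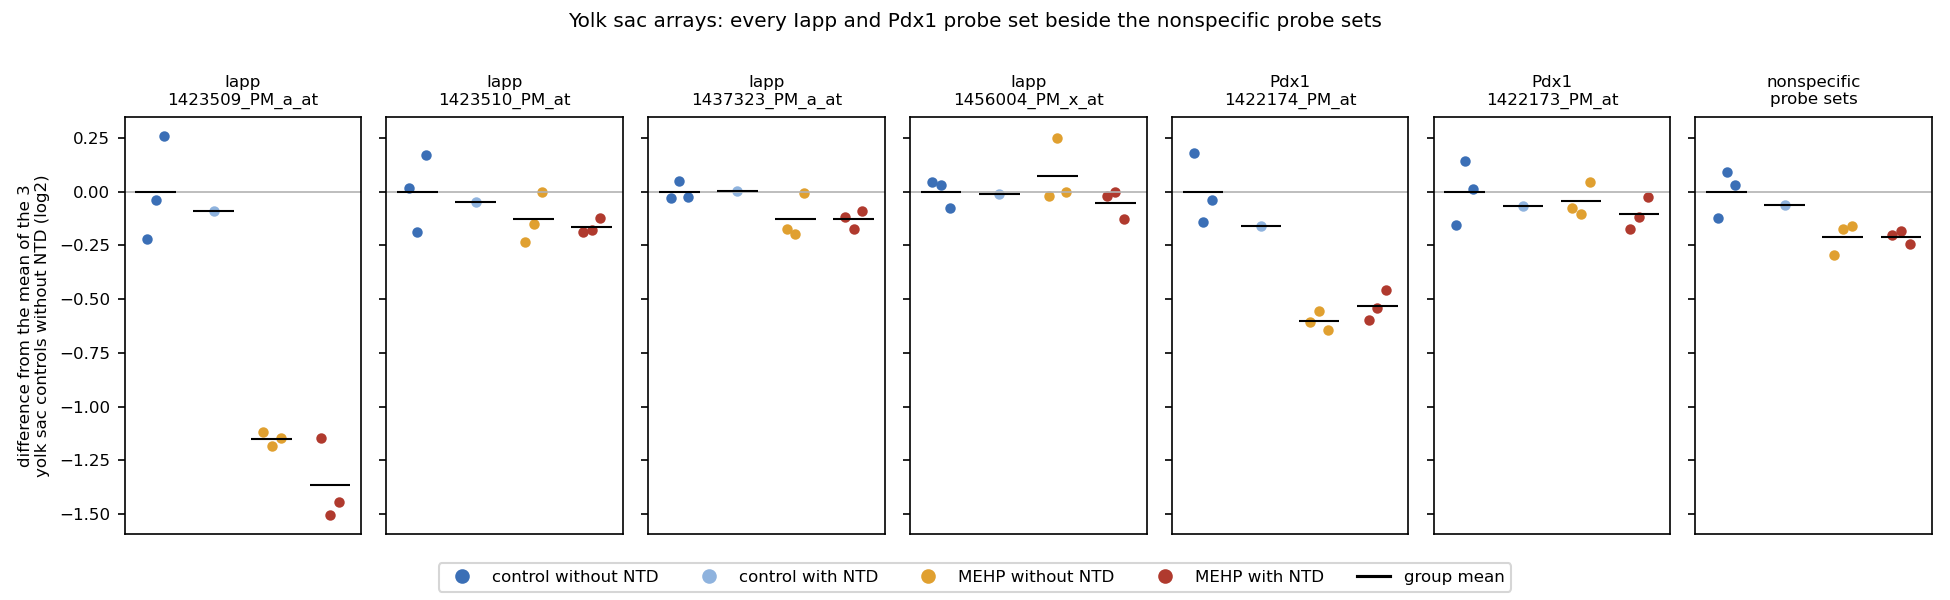
Log2 level minus the mean of the 3 yolk sac controls without NTD (vertical axis) on each of the 10 yolk sac arrays, for 4 Iapp probe sets, 2 Pdx1 probe sets and the mean of 9 nonspecific probe sets, with black bars for group means. The main Iapp and Pdx1 probe sets (the first and the fifth panel) lie at group means of -1.15 and -0.60 with MEHP without NTD, and the nonspecific probe sets at -0.21.

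No gene of the lists around Iapp and Pdx1 passed in the yolk sac with MEHP without NTD. For MEHP without NTD minus control, 65 of 20794 genes passed limma's test at an adjusted p of 0.05 (0.313%), 40 of them higher (0.192%) and 25 lower (0.12%). None of 10 amylin and calcitonin family genes, 23 islet hormone and granule genes, 18 islet transcription factors and 23 gut and endoderm factors was among them, with list medians of -0.14, -0.08, -0.06 and -0.02 beside a median of -0.02 over all genes. At an unadjusted p under 0.05 the counts were 2, 1, 6 and 2, and 3554 over all genes. Calcr stood at a group mean of 4.28 in controls and 4.09 with MEHP, Ramp1 at 4.86 and 4.67, and Ramp3 at 5.50 and 5.36. Ramp2, the brightest of the Ramp genes, went the other way, with a slightly higher mean with MEHP and overlapping groups. None of the falls of Calcr, Ramp1 and Ramp3 was larger than that of the nonspecific probe sets in the same comparison, whose part was not tested. Calcrl, the receptor for the related peptides adrenomedullin and CGRP, stood at 8.70 and 9.01. Insulin genes were level, with Ins1 at 5.66 and 5.56 and Ins2 at 6.03 and 6.04. The glucose transporter Slc2a2, a beta cell gene that yolk sac endoderm also expresses, stood at 11.82 and 11.87. Hnf4a (10.26 and 10.27) and Foxa2 (8.93 and 8.92), endoderm factors that also act upstream of Pdx1 in pancreas, were at close means, and the pancreas progenitor factors Nkx6-1 (4.90 and 4.94) and Neurog3 (3.83 and 3.88) were dim.

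With MEHP and NTD together, 494 genes passed against control (2.38%), 291 higher (1.4%) and 203 lower (0.976%). From the 4 lists above 1 gene was among them, Foxa2, which fell from 8.93 to 8.60 (-0.33 ± 0.07, adjusted p = 0.0406 by limma). Foxa2 is a forkhead factor of definitive and visceral endoderm. The call was lost on leaving out any 1 of the 6 arrays (adjusted p 0.0693 to 0.132). Hnf4a held a mean of 10.21 and Slc2a2 of 11.74 in that group. For MEHP with NTD minus MEHP without NTD, 0 genes passed limma's adjusted test (0%), 2002 had an unadjusted p under 0.05, and 13 passed when limma used a trended, robust prior.

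Targets of PPAR, the receptors through which phthalate monoesters act in rodent liver, gave a single call in the yolk sac. Of 36 measured, 1 fell and 35 did not pass with MEHP without NTD, beside 0.313% of all genes passing. At an unadjusted p under 0.05 the list held 11 genes, and its differences ran from -0.87 to 0.46. It was Ucp3, a mitochondrial carrier, from 6.18 to 5.65 (-0.53 ± 0.07, adjusted p = 0.028 by limma). Ucp3 also fell with MEHP and NTD (-0.40 ± 0.07, adjusted p = 0.0284). Without any 1 array its first call was lost (adjusted p 0.0581 to 0.114), and its second was lost in 5 of 6 such fits.

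Gatm, the enzyme of the first creatine step, was lowest in yolk sacs with MEHP and NTD. Its only probe set (1423569_PM_at) stood at 5.88, 5.94 and 5.70 in controls without NTD, at 5.55 in the control with NTD, at 5.55, 5.75 and 5.38 with MEHP without NTD, and at 5.14, 5.06 and 4.95 with MEHP and NTD. The 3 MEHP arrays with NTD lay below all other yolk sac arrays, and MEHP without NTD overlapped the controls. Means were 5.84 ± 0.13, 5.56 ± 0.19 and 5.05 ± 0.10 (SD, n = 3 each). The difference was -0.51 ± 0.10 for MEHP with NTD minus MEHP without NTD (1.42-fold lower), -0.79 ± 0.10 for MEHP with NTD minus control (1.72-fold lower) and -0.28 ± 0.10 for MEHP without NTD minus control.

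None of 8 other creatine genes passed in any yolk sac comparison. Gamt, which methylates the product of Gatm to creatine, stood at means of 6.88, 7.0 and 6.98 in controls, MEHP without NTD and MEHP with NTD, and the creatine transporter Slc6a8 at 8.68, 8.98 and 8.68. Among 25 genes of arginine, ornithine and glycine metabolism 1 passed, with MEHP and NTD against control, where 2.38% of all genes passed. Azin2, an antizyme inhibitor that raises polyamine synthesis, fell from 5.09 to 4.69 (-0.40 ± 0.06, adjusted p = 0.0251 by limma) and passed in 2 of 6 fits that left out 1 array. List medians in that comparison were 0.04 for creatine genes and 0.02 for the arginine list, beside -0.01 over all genes.

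Cndp1, the carnosinase gene, was highest in yolk sacs with MEHP and NTD. Its probe set (1455561_PM_at) stood at 5.0, 4.68 and 4.86 in controls without NTD, at 5.45 in the control with NTD, at 5.22, 5.33 and 5.16 with MEHP without NTD, and at 5.79, 6.11 and 5.96 with MEHP and NTD. No 2 of the yolk sac groups overlapped, and the single control with NTD lay above all MEHP arrays without NTD. Means of 4.84 ± 0.16, 5.23 ± 0.09 and 5.96 ± 0.16 (SD, n = 3 each) gave a difference of 0.72 ± 0.10 for MEHP with NTD minus MEHP without NTD, 1.65-fold higher. Against control the difference was 0.39 ± 0.10 with MEHP without NTD and 1.11 ± 0.10 with MEHP and NTD, the latter 2.16-fold and ranked 17 in size.

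Its neighbours in carnosine metabolism were not called. Cndp2, the cytosolic dipeptidase, stood at means of 12.17, 12.39 and 12.30 in controls, MEHP without NTD and MEHP with NTD, and Carns1, which makes carnosine, at 4.85, 4.85 and 4.93. Of 19 genes of carnosine and histidine metabolism, 1 passed in the yolk sac, with MEHP and NTD against control (2.38% of all genes). Uroc1, the urocanase of histidine breakdown, fell from 5.84 to 5.35 (-0.49 ± 0.09, adjusted p = 0.0328 by limma) and passed in 1 of 6 fits that left out 1 array.

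Ctse, cathepsin E, was highest in yolk sacs with MEHP and NTD. Yolk sac levels (1418989_PM_at) were 5.90, 5.56 and 5.86 in controls without NTD, 6.33 in the control with NTD, 5.80, 6.41 and 5.49 with MEHP without NTD, and 8.19, 6.90 and 6.89 with MEHP and NTD. The 3 MEHP arrays with NTD lay above the other 7, and the first of them lay far above its own group. Means were 5.77 ± 0.18, 5.90 ± 0.47 and 7.33 ± 0.74 (SD, n = 3 each). MEHP with NTD minus MEHP without NTD was 1.43 ± 0.33, 2.69-fold higher and ranked 3 in size among all genes, and it was 0.996 without the array at 8.19. MEHP with NTD minus control was 1.55 ± 0.33, and 1.12 without that array. MEHP without NTD minus control was 0.13 ± 0.33 and ranged from -0.13 to 0.33 when any 1 array was left out.

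Markers of blood cells, which can carry cathepsin E, were also highest on that array. The median of 14 primitive erythroid markers was 9.31 on it, against 8.01 and 8.68 on the other MEHP arrays with NTD, 8.02 to 8.87 with MEHP without NTD, 7.745 in the control with NTD and 7.53 to 8.78 in the other controls. The median of 12 macrophage markers was 5.64 on it, against 4.88 and 4.96 on the others of its group and 4.94 to 5.31 on the remaining 7 yolk sac arrays. On the other MEHP arrays with NTD, Ctse stood at 6.90 and 6.89, above the remaining 7 arrays, while their erythroid medians and 1 macrophage median lay within the range of those 7 and the other macrophage median (4.88) lay below it. None of the 14 erythroid and 12 macrophage markers passed in any yolk sac comparison, with erythroid list medians of 0.04, 0.31 and 0.42 for MEHP without NTD minus control, MEHP with NTD minus MEHP without NTD and MEHP with NTD minus control. Their part in the Ctse values was not tested.

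**Figure D3:**
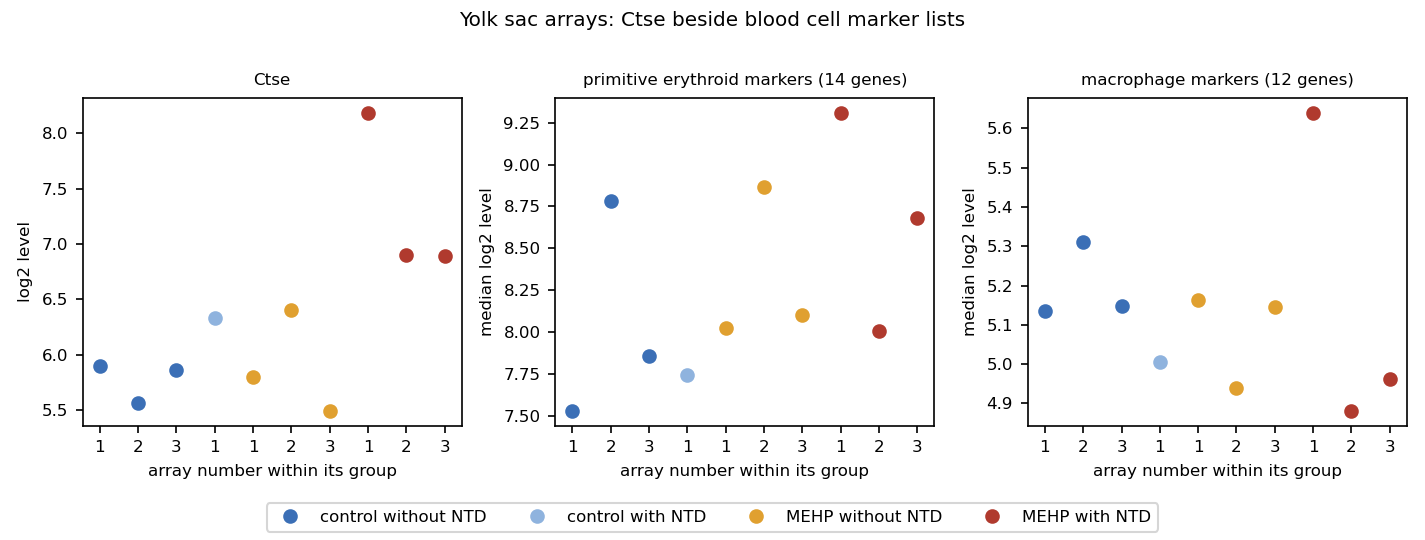
Ctse log2 level and the median log2 level of 14 primitive erythroid and 12 macrophage markers (vertical axes) on the 10 yolk sac arrays (horizontal axis, array number within its group), coloured by group. MEHP array 1 with NTD is highest in all 3 panels (8.19, 9.31 and 5.64), and arrays 2 and 3 of that group are above the other groups in Ctse (6.90 and 6.89) and not in either marker median.

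Other proteases and inhibitors were counted as lists. None of 8 aspartic proteases passed in the yolk sac, and Ctsd, the lysosomal aspartic protease, stood at means of 9.78, 9.78 and 9.70 in controls, MEHP without NTD and MEHP with NTD. Of 16 other cathepsins and inhibitors, 1 passed, with MEHP and NTD against control, where 2.38% of all genes passed. Cstb, cystatin B, an inhibitor of cysteine cathepsins, fell from 12.37 to 12.07 (-0.30 ± 0.06, adjusted p = 0.0328 by limma) and passed in 1 of 6 fits that left out 1 array.

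Marker lists of other cells were also counted in the yolk sac. With MEHP and NTD against control, 1 of 10 cardiac and 1 of 12 neural markers passed, beside 2.38% of all genes. The heart gene Tnnt2 rose (0.56) and the neural gene Sox1 fell (-0.36). No visceral endoderm (29), endothelial (12), mesoderm (14), parietal endoderm (14) or trophoblast (12) marker passed in any yolk sac comparison, nor did any of 30 stress response or 5 amyloid degradation genes. The calls of Sox1 and Tnnt2 were lost in 6 and 4 of 6 fits that left out 1 array. Neural list medians were 3.72 to 3.81 on controls without NTD and 3.46 to 3.58 with MEHP and NTD, all near the dim end of the scale.

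In embryos the same 5 genes were tested. They were picked for their yolk sac levels, but with earlier results of the whole series known, so these tests are not shown to be independent of the choice. For MEHP without NTD minus control, 2021 of 20794 genes passed (9.72%), 794 higher (3.82%) and 1227 lower (5.9%), and 1 of the 5 did. Pdx1 fell from 4.13, 4.12 and 4.24 to 3.79, 3.87 and 3.80, with no overlap, a difference of -0.34 ± 0.07 (adjusted p = 0.022 by limma, n = 3 each). Leaving out any 1 of the MEHP arrays ended the call (adjusted p 0.0675 to 0.0723), and so did quantile normalization (0.0557), cyclic loess (0.0656) and leaving out both arrays high in visceral endoderm markers (0.114, difference -0.35). Nonspecific probe sets differed by -0.23 in the same comparison, and their part was not tested.

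The other 4 genes did not pass in that comparison. Iapp went from 4.52, 4.71 and 4.79 to 4.2, 4.34 and 4.28, groups that did not overlap (-0.40 ± 0.14, adjusted p = 0.0896 by limma). Gatm went from 5.76, 6.24 and 6.22 to 6.42, 6.59 and 6.70, with every MEHP embryo above every control (0.49 ± 0.14, adjusted p = 0.0554). It passed without control array 3 (adjusted p = 0.0488), with a trended, robust prior (0.0448) and with all 20 arrays in 1 fit (0.0207), and not without both arrays high in visceral endoderm markers (0.162, difference 0.51). Cndp1 stood at 4.40, 4.23 and 4.2 in controls and 4.44, 4.38 and 4.30 with MEHP (0.10 ± 0.08, adjusted p = 0.441), and Ctse at 5.69, 5.12 and 5.67 and at 5.15, 5.52 and 4.92 (-0.30 ± 0.18, adjusted p = 0.297).

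Embryos with NTD did not differ in any of the 5 genes at the threshold. For MEHP with NTD minus MEHP without NTD, 5 genes passed (0.024%), 2 higher (0.00962%) and 3 lower (0.0144%), none of them 1 of the 5 genes. Both higher genes belong to the list of 30 stress response genes. Gatm was at 5.68, 6.09 and 5.95 with NTD, below every MEHP embryo without NTD (-0.66 ± 0.14, unadjusted p = 0.000882 and adjusted p = 0.285 by limma). Ctse was at 5.98, 5.82 and 5.65, above every MEHP embryo without NTD (0.62 ± 0.18, unadjusted p = 0.00542 and adjusted p = 0.503 by limma). Without both arrays high in visceral endoderm markers the differences were -0.60 and 0.48. Erythroid marker medians on the embryo arrays with NTD were 7.47, 6.26 and 6.26, against 7.03, 7.30 and 6.42 without NTD. Iapp (4.41, 4.69 and 4.06), Pdx1 (4.04, 3.85 and 3.92) and Cndp1 (4.26, 4.39 and 4.35) gave adjusted p-values of 0.979, 0.942 and 0.985 by limma. For MEHP with NTD minus control 1549 genes passed (7.45%), 667 higher (3.21%) and 882 lower (4.24%), and none of the 5 did, with differences of -0.29 for Iapp, -0.23 for Pdx1 (adjusted p = 0.0775 by limma), 0.06 for Cndp1, -0.17 for Gatm and 0.32 for Ctse. None of the 5 passed without both arrays high in visceral endoderm markers in any embryo comparison. The single control embryo with NTD stood at 4.50 for Iapp, 3.99 for Pdx1, 4.48 for Cndp1, 5.75 for Gatm and 5.70 for Ctse.

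**Figure D4:**
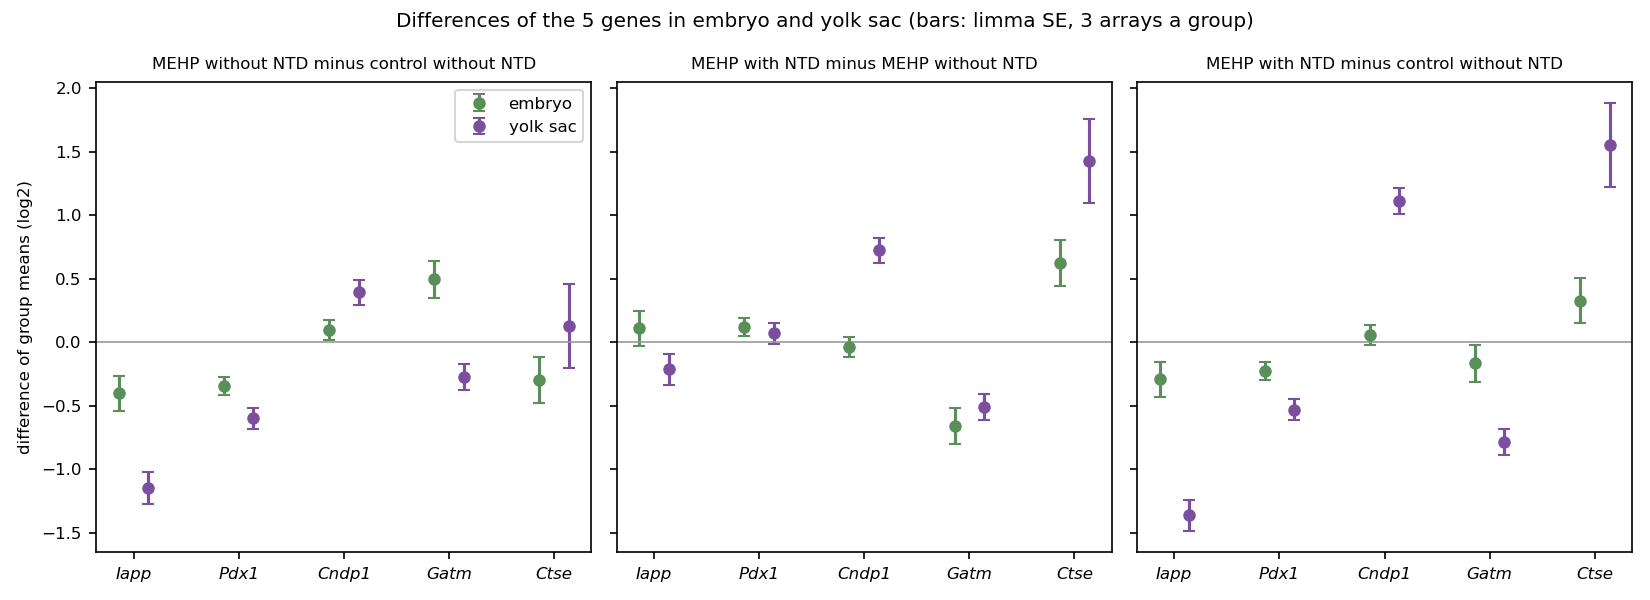
Difference of group means on the log2 scale (vertical axis) for the 5 genes in embryo and yolk sac, in 3 comparisons, with limma SE as bars and 3 arrays in each group. Yolk sac Iapp lies at -1.15 and -1.36 in the comparisons with control, and yolk sac Ctse at 1.43 and 1.55 in the comparisons that include NTD, while all embryo values lie between -0.66 and 0.62.

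List genes were also counted in embryos, where 9.72% of all genes passed with MEHP without NTD and 7.45% with MEHP and NTD, each against control. With MEHP without NTD, 1 of 10 amylin and calcitonin family genes rose and 2 fell, namely Calcrl (0.80 ± 0.14), Ramp3 (-0.31 ± 0.08) and Adm2 (-0.33 ± 0.09), and 7 did not pass. Of 18 islet transcription factors, Insm1 rose (1.23 ± 0.25), Bhlha15 (-0.56 ± 0.12) and Mnx1 (-0.29 ± 0.08) fell, and 15 did not pass. Nonspecific probe sets differed by -0.23 in that comparison, and their part in these falls was not tested. Adm2 (4.10) and Mnx1 (3.46) were dim in MEHP embryos without NTD. Of 23 islet hormone and granule genes none passed with MEHP without NTD, and 4 fell with MEHP and NTD against control. They were the hormone genes Sst (-1.02 ± 0.13, adjusted p = 0.0067 by limma), Gcg (-0.54 ± 0.12, 0.0318) and Ins2 (-0.37 ± 0.09, 0.0426) and the granule gene Chgb (-0.46 ± 0.11, 0.0394). Sst passed in 6 of 6 fits that left out 1 array, Gcg in 0 and Ins2 and Chgb in 1. With MEHP and NTD against control, 1 of 12 neural markers rose and 5 fell. The part of neural cells in the falls of these 4 genes was not tested. Of 8 creatine genes none passed in embryo. Of 30 stress response genes 1 rose and 1 fell with MEHP without NTD, and 9 rose and 0 fell with MEHP and NTD, each against control. With MEHP without NTD 3 of 25 arginine genes fell, 1 of 19 carnosine genes rose and 4 fell, and 1 of 8 aspartic proteases rose. Azin2 fell with MEHP without NTD (-0.52 ± 0.12) and with MEHP and NTD (-0.53 ± 0.12), Uroc1 fell (-0.39 ± 0.09 and -0.38 ± 0.09) and Csad, which makes hypotaurine, rose (0.46 ± 0.11 and 0.44 ± 0.11), and Bace1, an aspartic protease, rose (0.42 ± 0.07 and 0.37 ± 0.07). With MEHP and NTD, Azin2 passed in 2 of 6 fits that left out 1 array, Uroc1 and Csad in 1 and Bace1 in 4. With MEHP without NTD, Bace1 passed in 5 of 6 such fits, Calcrl in 4 and Insm1 in 2. Ramp3, Bhlha15, Azin2, Uroc1 and Csad passed in 1, and Adm2 and Mnx1 in 0. Without both arrays high in visceral endoderm markers, all calls named here with MEHP without NTD were lost. With MEHP and NTD those of Sst and Bace1 still passed, and those of Gcg, Ins2, Chgb, Azin2, Uroc1 and Csad were lost.

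The order of the 8 groups differed by gene. Iapp was highest in yolk sac controls without NTD (5.52) and with NTD (5.44), which overlapped, followed by embryo controls without NTD (4.68), and its lower 5 groups (4.50 to 4.16) overlapped in turn. Pdx1 was highest in all 4 yolk sac groups (4.86, 4.70, 4.33 and 4.26), above embryo controls (4.16) and MEHP embryos without NTD (3.82). The lowest yolk sac group of Pdx1 and the embryo controls overlapped. Cndp1 was likewise higher in all 4 yolk sac groups (5.96 to 4.84) than in the embryo groups (4.48 to 4.28). Gatm was highest in MEHP embryos without NTD (6.57) and lowest in yolk sacs with MEHP and NTD (5.05). Ctse was highest in yolk sacs with MEHP and NTD (7.33) and lowest in MEHP embryos without NTD (5.2), and its groups between 5.90 and 5.70 overlapped.

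Across the 10 yolk sac arrays Iapp and Pdx1 followed each other (Pearson r = 0.86), and Cndp1 and Gatm ran opposite (r = -0.90). Cndp1 and Ctse gave r = 0.78, and Gatm and Ctse r = -0.67. These coefficients describe 10 arrays that share the group differences given above and have no p. In the 10 embryo arrays the same pairs gave 0.66, -0.15, 0.09 and -0.77.

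**Figure D5:**
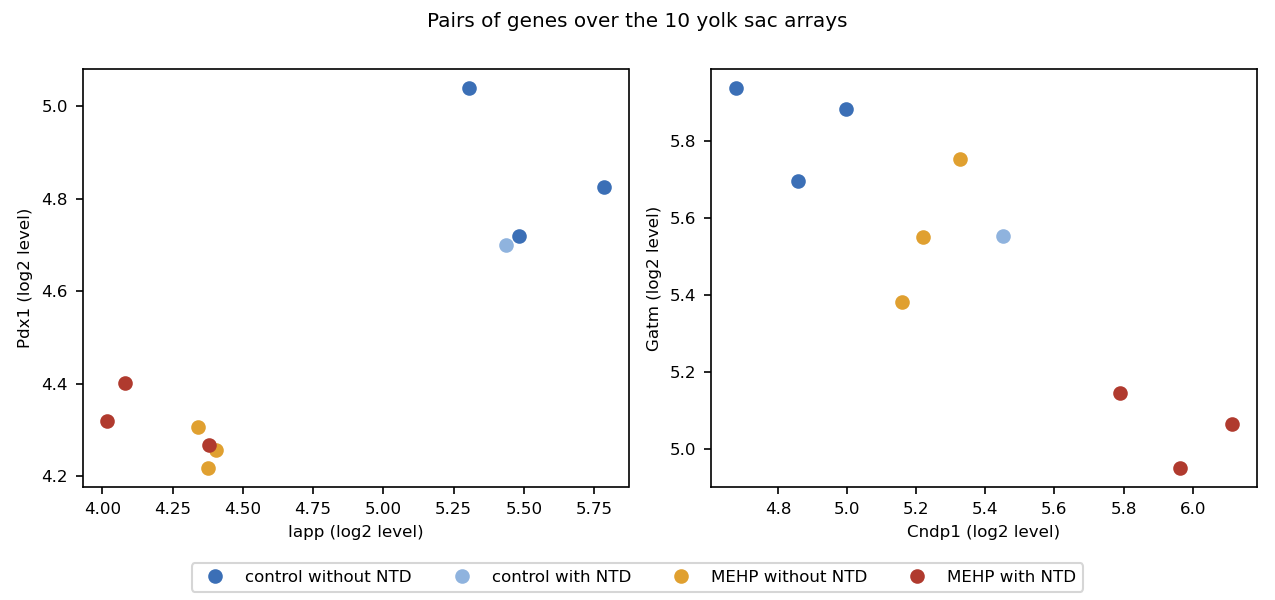
Log2 levels of Iapp against Pdx1 and of Cndp1 against Gatm on the 10 yolk sac arrays, coloured by group. Controls and MEHP arrays form separate clouds in the first panel, and the 3 MEHP arrays with NTD lie apart at high Cndp1 (5.79 to 6.11) and low Gatm (4.95 to 5.14) in the second.

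Genes most like each of the 5 were taken as those with the highest Pearson r over the 10 yolk sac arrays among 553 genes whose yolk sac range was at least 1 log2 unit. For Iapp they were Ccdc177 (r = 0.94), 5930430L01Rik (0.92) and the cation channel gene Trpv2 (0.84). For Pdx1 they included Synpo2 (0.87) and Mirlet7d (0.80), named as the file names it. Cndp1 was most like Tmem14a (0.91), ccdc198 (0.90) and Trim12c (0.90), and Ctse like the interferon-induced Cmpk2 (0.88) and Trim12c (0.87). Trim12c, of the tripartite motif family, stood at group means of 5.90, 6.41 and 7.11 in controls, MEHP without NTD and MEHP with NTD. Gatm was most like the tetraspanin gene Cd82 (0.89), the kinase gene Sik1 (0.88) and Meltf (0.86), and Cd82 stood at 9.82, 9.75 and 8.95.

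The authors' deposited tables average other sets of arrays, 6 exposed against 4 control and 4 with NTD against 6 without. In the authors' deposited table for yolk sac exposure the log2 differences were -1.23 for Iapp, -0.53 for Pdx1, 0.60 for Cndp1, -0.46 for Gatm and 0.70 for Ctse. In the authors' deposited table for yolk sac NTD they were -0.47, -0.14, 0.79, -0.52 and 1.24. Iapp had the largest of these differences by exposure and Ctse by NTD. The 3 MEHP arrays with NTD are in the exposed class of 1 table and the NTD class of the other, so the tables do not separate exposure from NTD. In the authors' deposited table for embryo exposure Pdx1 had a difference of -0.24 and an adjusted p of 0.0236.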

How the data were processed

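RNA of 20 samples, 10 embryos and 10 visceral yolk sacs, was measured on Affymetrix arrays. The authors deposited log2 levels of 45141 probe sets. RMA, limma and R (version 2.15.1) appear in the submitters' processing notes. In 4 comparison tables the authors give log2 differences, the same as a ratio, and p-values. Array groups were read from those tables, whose differences were met by a single split among 1022 possible ones in each. Sample headings of a second deposited copy of these values disagree with that grouping for 13 arrays, and for 8 of them in tissue. They were run as an alternative.

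Leaving out 104 control probe sets and 6670 without a symbol left 38367, or 20794 genes. Symbols were updated by Entrez identifier for 35403 and kept for 2964. In limma 3.58.1 under R 4.3.3, with the package data.table at version 1.17.8, 1 mean per group was fitted to the 10 arrays of a tissue, with Benjamini-Hochberg adjustment over all genes and a threshold of 0.05. The fit was tested on simulated data. Plots were drawn with matplotlib 3.10.9 (Python 3.11.15). Precision is limited by how few arrays there are: a typical (median) SE was 0.0893 for embryo and 0.08 for yolk sac. The 5 genes, the 21 gene lists (350 of 360 genes measured) and the tests were chosen with earlier results of these data known. Named list genes are at most 4 passing genes per list with the largest differences, plus direct partners of the 5 genes. Alternatives were normalization, a filter on dim genes, the fit's prior, all 20 arrays in 1 fit, all probe sets, the sample headings, and leaving out arrays. Some genes that this rule or the likeness measure would name are not reported here.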

Additional observations from a re-analysis of the deposited data

Results flagged for a closer look

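Gatm differed in direction between tissues with MEHP without NTD. All 3 MEHP embryos lay above the control embryo mean (difference 0.49), and all 3 MEHP yolk sacs lay below the control yolk sac mean (-0.28), so that the embryo difference minus the yolk sac difference was 0.77. The embryo difference did not pass (adjusted p = 0.0554 by limma), and in yolk sac the MEHP arrays overlapped the controls. The difference between tissues was not tested.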

How the results depend on the processing

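Directions of the 5 genes held under both normalizations. The trended prior, all probe sets and 1 fit of 20 arrays use the same group means, so they could not change a direction. Iapp, Pdx1 and Cndp1 have no value under the filter on dim genes, which removed them. Under the sample headings directions turned in embryo for MEHP without NTD minus control (Iapp 0.85, Pdx1 0.70, Gatm -0.24, Ctse 0.28, Uroc1 0.72, Sox1 -4.52, Tnnt2 -6.19, Insm1 -2.44, Bace1 -0.12), for MEHP with NTD minus MEHP without NTD (Iapp -0.86, Pdx1 -0.74, Gatm 0.35, Ctse -0.11) and for MEHP with NTD minus control (Gatm 0.11, Tnnt2 -1.73). In yolk sac they turned for MEHP without NTD minus control (Iapp 0.041, Cndp1 -0.61) and MEHP with NTD minus control (Pdx1 0.21, Ucp3 0.15, Foxa2 0.25, Cstb 0.39, Tnnt2 -1.68). The headings put other arrays in the groups, and 8 arrays in the other tissue. Between embryo MEHP groups Iapp ranged from -0.042, without MEHP array 2 with NTD, to 0.273 when 1 array was left out.

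Counts of genes passing moved with the setting. For embryo MEHP without NTD minus control (2021) they were 1094 with cyclic loess, 488 without dim genes, 3439 with 20 arrays in 1 fit, 4053 for all probe sets, 6521 under the headings and 169 without both arrays high in visceral endoderm markers, an alternative chosen after seeing the data. Of the 5 genes 0 passed with quantile normalization, cyclic loess, no dim genes or without those arrays, and 2 with 20 arrays in 1 fit or a trended prior. For embryo MEHP with NTD minus MEHP without NTD (5) the counts were 2 with quantile normalization, 20 with 20 arrays, 8 with a trended prior, and 0 without dim genes, under the headings or without both arrays. For embryo MEHP with NTD minus control (1549) they were 795, 511, 3006, 3074, 0 and 388 in the order of the first comparison. In yolk sac, MEHP without NTD minus control (65) gave 28 without dim genes, 191 with 20 arrays, 199 with a trended prior, 389 for all probe sets and 0 under the headings. MEHP with NTD minus MEHP without NTD (0) gave 13 with a trended prior, 6510 under the headings and 30 under another of the alternatives. MEHP with NTD minus control (494) gave 1218 for all probe sets and 0 under the headings. The cause was not tested.

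Leaving out 1 array gave 286 to 2493, 0 to 7 and 270 to 1937 genes in the 3 embryo comparisons in this order, with 0 to 2 of the 5 genes in the first and 0 in the others, and 1 to 2, 0 to 1 and 18 to 192 in yolk sac. No paired analysis was possible because the array names carry no replicate number. Iapp, Pdx1 and Cndp1 lie near nonspecific signal, which limits how small a difference can be read.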
